A study of Homo sapiens with 4 samples.

Results

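The 10 genes described here are the fibroblast growth factor (FGF) receptors FGFR1, FGFR2, FGFR3, FGFR4 and FGFRL1, the ligand FGF2, the docking protein gene FRS2 and the Sprouty genes SPRY1, SPRY2 and SPRY4. They were chosen by name, with FGFR2, a gene the study names as a target in these cells, set beside its paralogs, and all 10 were found among 57768 gene entries. RNA-seq was done on cells labelled HepG2, a liver cancer line. There were 2 libraries for WT cells and 2 for C/EBPβ enh−/− cells, in which CRISPR/Cas9 had removed both alleles of an enhancer of CEBPB. CEBPB encodes C/EBPβ, a transcription factor of liver and inflammatory genes. The sources used here do not state whether the C/EBPβ enh−/− libraries came from 1 clone or from separate cultures, or whether the WT cells had received the blank vector, so p-values measure only the spread between these libraries. The values are FPKM, which scales fragments by transcript length and library size, so that levels of different genes can be set side by side.

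FGF receptors are tyrosine kinases at the cell surface that bind FGF ligands together with heparan sulfate chains or, for hormone-like FGFs, with Klotho proteins. An active receptor phosphorylates the membrane-bound docking protein FRS2, which recruits GRB2, SOS1 and PTPN11 and so switches on RAS and the ERK kinases. ERK in turn raises the transcription of ETS factors, dual-specificity phosphatases and Sprouty genes, whose products dampen the pathway. In hepatocytes, FGFR4 with the coreceptor KLB receives the gut hormone FGF19 and restrains bile acid synthesis, while FGFR2 is a receptor that exists in epithelial and mesenchymal splice forms.

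Sequences just before the annotated starts of 3 of the genes are shown because FGFR2 and FGF2 were the members with the lowest C/EBPβ enh−/− to WT ratio, and because 1 window of FGFR4 holds the core letters of a C/EBP site. They are the 250 bases before a RefSeq start on GRCh38.p14, on the strand of the gene, at chr10:121598445-121598694 (minus strand) for FGFR2, chr4:122826581-122826830 (plus strand) for FGF2 and chr5:177089300-177089549 (plus strand) for FGFR4. Capitals mark the GC box letters GGGCGG, on either strand, in FGFR2 and FGF2 and the C/EBP core letters TTGCNCAA in FGFR4.
FGFR2 first start: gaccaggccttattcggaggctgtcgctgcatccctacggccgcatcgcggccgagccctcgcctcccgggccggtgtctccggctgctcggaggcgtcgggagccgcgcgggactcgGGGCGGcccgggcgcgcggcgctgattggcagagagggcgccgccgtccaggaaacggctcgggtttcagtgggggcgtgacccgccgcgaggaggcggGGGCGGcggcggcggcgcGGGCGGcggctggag
FGF2 start: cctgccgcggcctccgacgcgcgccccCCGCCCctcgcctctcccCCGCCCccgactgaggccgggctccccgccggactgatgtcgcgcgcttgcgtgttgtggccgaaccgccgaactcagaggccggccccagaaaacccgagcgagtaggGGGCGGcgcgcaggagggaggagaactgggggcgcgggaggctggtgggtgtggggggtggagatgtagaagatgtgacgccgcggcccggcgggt
FGFR4 later start: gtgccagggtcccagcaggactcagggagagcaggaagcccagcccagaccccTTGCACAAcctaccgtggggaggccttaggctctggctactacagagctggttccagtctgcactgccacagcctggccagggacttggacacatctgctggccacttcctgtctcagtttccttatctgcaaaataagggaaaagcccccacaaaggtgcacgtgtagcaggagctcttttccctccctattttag

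The RefSeq table held 17 such windows for 9 of the 10 genes, and none for FGFR1. On both strands, TTGCNCAA (reverse complement TTGNGCAA) was present in 1 of the 17, the FGFR4 window printed above, where it begins 197 bases before the start, and in 2.27% of all 35116 windows. The 5 windows of FGFR2 did not hold it. The ETS core CCGGAAGT (reverse complement ACTTCCGG) was present in 1 of the 17, in FRS2, 15 bases before the start, against 3.42% of all windows. GGGCGG (reverse complement CCGCCC) was present in 10 of the 17 and in 42.6% of all windows. The searched letters do not overlap one another. These matches describe the letters of the windows only, and no binding data were used here.

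The 4 libraries held FPKM totals from 484073 to 614111, and the spacing of low values corresponded to about 21750000 fragments in C/EBPβ enh−/− library 1 and 39350000 to 48250000 in the other 3, so library 1 was the shallowest. CEBPB had 30.6 and 19.2 FPKM in WT cells and 12.4 and 11.8 in C/EBPβ enh−/− cells. This log2 fold change of −0.94 did not pass the test (adjusted p = 0.125, limma), and it was −0.62 without WT library 1. Of 22 liver markers, 21 were under an FPKM of 1 in all 4 libraries, ALB among them, so the defining markers of the labelled cell type were absent, and the values may not be those of HepG2 cells. The labels give total RNA as the molecule but describe an extraction of chromatin, which leaves the preparation of these libraries uncertain. FOXA1, at 1.23 to 2.09, was the exception. The 8 epithelial markers summed to 1308 and 1232 FPKM in WT cells and to 335 and 461 in C/EBPβ enh−/− cells, with the keratin genes KRT8, KRT18 and KRT7 as the highest, while the defining epithelial genes CDH1 and EPCAM were at most 0.00811 in any library. The 8 mesenchymal markers summed to 293 and 371 against 253 and 215, most of it VIM (232 and 308 against 190 and 138), while COL3A1 went the other way (33.3 and 31.9 against 45.8 and 55.7) and COL1A1 overlapped, and the 8 blood markers to at most 0.733. The part of these differences in the results for the receptors was not tested, and in such bulk RNA fewer cells of a type cannot be told apart from less RNA per cell.

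FGFR1 and FGFR3 were higher, and FGFR2, FGFR4, FGFRL1 and FGF2 were lower, in both C/EBPβ enh−/− libraries than in both WT libraries, while FRS2, SPRY1 and SPRY2 overlapped between the genotypes. Over the 12491 genes whose mean FPKM reached 1, the genotypes were compared on the log2(FPKM + 1) scale with limma. Of the 10 genes, 9 entered this test and SPRY4 did not. None of the 9 had an adjusted p under 0.05, against 1.21% of all tested genes called lower and 0.248% called higher. At an unadjusted p under 0.05 (limma), 2 of the 9 were lower and 1 was higher, against 16.9% and 3.86% of all tested genes. The 9 genes had a median log2 fold change of −0.18, beside −0.14 over all tested genes. Both C/EBPβ enh−/− libraries were under the lower WT library for 4 of the 9 and over the higher one for 2, against 37.5% and 15.1% of all tested genes. Fold changes on this scale understate the change of low genes.

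**Figure D1:**
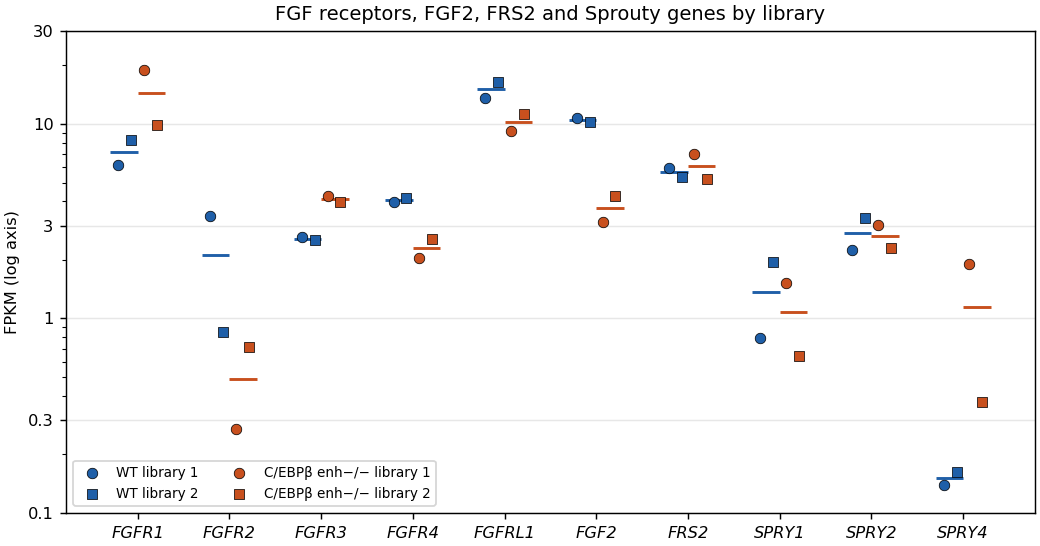
FPKM of the 10 genes on a log axis, 1 point per library, with WT in blue, C/EBPβ enh−/− in orange and a bar at the mean of each genotype. FGF2 sits at 10.7 and 10.3 in WT cells and at 3.13 and 4.24 in C/EBPβ enh−/− cells, while the WT values of FGFR2 lie far apart, at 3.38 and 0.851.

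FGFR2 (ENSG00000066468.16, chr10:123237846-123357972 on GRCh37, minus strand) was at 3.38 FPKM in the first WT library, 0.851 in the other WT library, 0.270 in C/EBPβ enh−/− library 1 and 0.711 in C/EBPβ enh−/− library 2. A single library, WT 1, was high, and the other WT library was close to C/EBPβ enh−/− library 2. The ratio of the means was 0.232, from 2.12 ± 1.79 (SD, n = 2) to 0.491 ± 0.312 (SD, n = 2). The log2 fold change was −0.95 ± 0.45 (SE), with an adjusted p of 0.281 (limma), and it was −0.33 without WT library 1 and −1.73 with a pseudocount of 0.1 in place of 1. At the estimated depths, these levels correspond to about 133, 37.1, 5.88 and 34.3 fragments per kb of transcript, so the lowest value also had the least support. The groups overlapped once the libraries were rescaled. With each library set to the same total without genes over 1% of any library, FGFR2 was at 0.776 in WT library 2 and 0.821 in C/EBPβ enh−/− library 2, and centring on the median of the tested genes also removed the separation. The study chose FGFR2 from cells of these genotypes, so its direction is not independent evidence. The value is for the whole gene and does not separate the splice forms.

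The nearest tested protein-coding genes on either side of FGFR2 were WDR11, 569 kb away, and ATE1, 111 kb away. WDR11 had 15.3 and 19.0 FPKM in WT cells and 12.3 and 15.9 in C/EBPβ enh−/− cells. ATE1 had 14.5 and 10.3 against 10.7 and 9.99. Neither gene was separated by genotype. The 6 tested genes within 1 Mb of FGFR2 had a median log2 fold change of −0.22 and the 459 of chromosome 10 one of −0.34. The 5 genes whose 4 values, centred on their own mean, lay closest to those of FGFR2 on the log2(FPKM + 1) scale were RGS5, SRP14-DT, DAB2, CBS and PRSS56, at Euclidean distances from 0.0870 to 0.251 over 4 libraries. RGS5 had 7.84 and 2.58 FPKM in WT cells and 1.65 and 2.33 in C/EBPβ enh−/− cells. Its high value in WT library 1 alone follows from how it was picked, by closeness to FGFR2.

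FGFR1 (ENSG00000077782.15, chr8:38257733-38326352, minus strand) was the receptor kinase with the highest FPKM in every library. Its FPKM values were 6.14 and 8.29 for WT, and 19.0 for library 1 and 9.91 for library 2 of C/EBPβ enh−/− cells. Both C/EBPβ enh−/− values were above both WT values, but C/EBPβ enh−/− library 2 was nearer to WT library 2 than to its own replicate. The means were 7.22 ± 1.52 for WT and 14.5 ± 6.43 for C/EBPβ enh−/− cells (SD, n = 2). This gave a log2 fold change of 0.86 ± 0.33 (SE) and an adjusted p of 0.208 (limma). It was 0.42 without C/EBPβ enh−/− library 1 and 1.30 without library 2. The 16 tested neighbours within 1 Mb of FGFR1 had a median log2 fold change of 0.24, with 8 of them above both WT values in both C/EBPβ enh−/− libraries (15.1% of all tested genes were), and chromosome 8 as a whole a median of 0.21 over 422 tested genes. The part of the chromosome in the FGFR1 difference was not tested.

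FGFR3 (ENSG00000068078.13, chr4:1795020-1810599, plus strand) had 2.62 and 2.53 FPKM in WT cells and 4.29 and 3.95 in C/EBPβ enh−/− cells. Its replicates lay close together and the genotypes did not overlap, with means of 2.57 ± 0.0574 and 4.12 ± 0.236 (SD, n = 2). The log2 fold change was 0.52 ± 0.23 (SE), and the adjusted p was 0.261 (limma). The 25 tested neighbours within 1 Mb had a median of −0.06 and the 435 tested genes of chromosome 4 one of 0.07.

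FGFR4 (ENSG00000160867.10, chr5:176513906-176525145, plus strand), the FGF19 receptor of hepatocytes and the gene whose later window holds TTGCACAA, had 3.95 and 4.18 FPKM in WT cells and 2.06 and 2.56 in C/EBPβ enh−/− cells. The replicates were close and the genotypes separate, at 4.07 ± 0.161 against 2.31 ± 0.359 (SD, n = 2). The log2 fold change was −0.62 ± 0.24 (SE), with an adjusted p of 0.208 (limma). Its partners in the liver were near 0 here. KLB, the coreceptor for FGF19, had 0.207 and 0.261 FPKM in WT and 0.176 and 0.377 in C/EBPβ enh−/− cells, and FGF19 was at most 0.0263. Of the 10 genes listed for the FGF19, FGFR4 and KLB axis, which include CYP7A1, the rate-limiting enzyme of bile acid synthesis, and NR0B2, 9 were under an FPKM of 1 in all 4 libraries.

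FGFRL1 (ENSG00000127418.10, chr4:1003724-1020686, plus strand) encodes a receptor that lacks the kinase domain. It had the highest FPKM of the 10 genes in WT cells. Its values were 13.7 and 16.5 FPKM in WT cells and 9.23 and 11.3 in C/EBPβ enh−/− cells, which did not overlap as deposited. Its log2 fold change was −0.51 ± 0.23 (SE), with an adjusted p of 0.263 (limma). It was −0.34 with centring and −0.29 with a common total. When rescaled to the same total without genes over 1%, C/EBPβ enh−/− library 2 was at 13.1 and WT library 1 at 12.7, so the separation depended on the scaling.

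**Figure D2:**
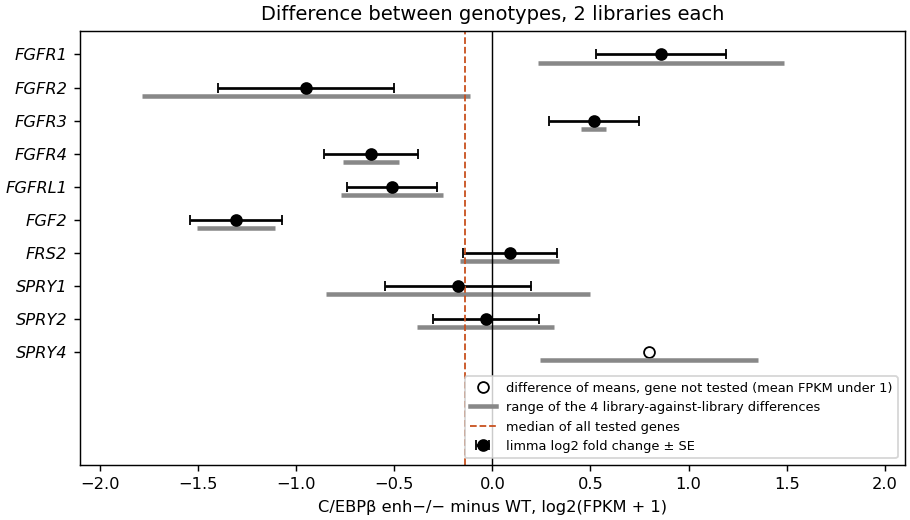
Difference between C/EBPβ enh−/− and WT cells in log2(FPKM + 1), as the limma log2 fold change ± SE, with the range of the 4 library-against-library differences in grey and the median of all tested genes as a dashed line. FGFR1 and FGFR3 lie to the right of 0, and FGFR2, FGFR4, FGFRL1 and FGF2 to the left, with the widest range for FGFR2 (−1.79 to −0.11).

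Set against its paralogs inside each library, FGFR2 was lower relative to FGFR1 and FGFR3 in both C/EBPβ enh−/− libraries, but not relative to FGFR4 or FGFRL1. log2((FGFR2 + 1)/(FGFR1 + 1)) was −0.71 and −2.33 for WT and −3.98 and −2.67 for C/EBPβ enh−/−, a difference of −1.81. For FGFR3 as the reference it was 0.28 and −0.93 against −2.06 and −1.53, a difference of −1.47. Neither of these pairs of groups overlapped, but without WT library 1 the differences shrank to −0.997 and −0.86, and without C/EBPβ enh−/− library 1 that for FGFR1 was −1.16. With FGFR4 as the reference it was −0.18 and −1.48 against −1.27 and −1.06, and with FGFRL1 −1.74 and −3.24 against −3.01 and −2.85. Here both C/EBPβ enh−/− libraries fell between the WT libraries, and the differences of −0.33 and −0.44 turned to 0.32 and 0.31 without WT library 1. A pseudocount of 0.1 gave larger differences, of −2.67 for FGFR1, −2.39 for FGFR3, −0.93 for FGFR4 and −1.18 for FGFRL1, with an exact permutation p of 0.667 for FGFR4 and FGFRL1 and no change in p for the others. In a two-sided exact permutation test, p was 0.33 for FGFR1 and FGFR3, which is the smallest that 2 libraries against 2 can give, and 1.0 for FGFR4 and FGFRL1. Adjusted over these 4 comparisons, the exact permutation p was 0.667 for the first pair and 1.0 for the other.

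The make-up of the receptor pool differed between libraries of the same genotype as well as between genotypes. FGFR1 held 38.2% and 52.3% of the summed FPKM of FGFR1 to FGFR4 in WT cells and 74.2% and 57.8% in C/EBPβ enh−/− cells. FGFR2 held 21.0% and 5.37% against 1.05% and 4.15%. The share of FGFR4 was 24.6% and 26.4% in WT cells and 8.03% and 15.0% in C/EBPβ enh−/− cells, with a gap of 9.59 percentage points between the nearest libraries and spreads of 1.81 within WT and 6.94 within C/EBPβ enh−/− cells. The share of FGFR3 was 16.3% and 16.0% against 16.7% and 23.1%. Only for FGFR4 was the gap between the nearest libraries of the 2 genotypes larger than the spread within either genotype. The summed FPKM of the 4 receptors was 16.1 and 15.9 in WT and 25.6 and 17.1 in C/EBPβ enh−/− cells.

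**Figure D3:**
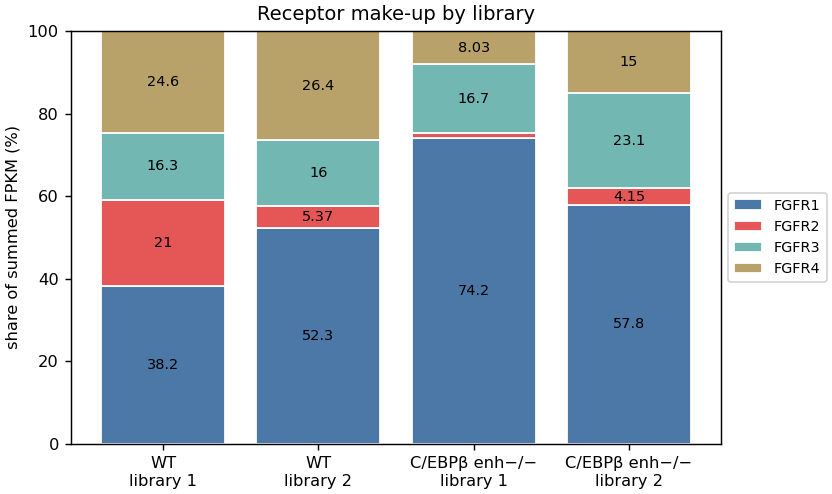
Stacked shares of FGFR1, FGFR2, FGFR3 and FGFR4 in their summed FPKM, in percent, with 1 bar per library. FGFR1 holds 74.2% in C/EBPβ enh−/− library 1, and FGFR2 holds 21.0% in WT library 1 and at most 5.37% in the other 3.

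FGF2 (ENSG00000138685.8, chr4:123747837-123819391, plus strand), a secreted ligand of FGFR1 among other receptors, had the smallest adjusted p of the 9 tested genes. It had 10.7 and 10.3 FPKM in WT cells and 3.13 and 4.24 in C/EBPβ enh−/− cells. The genotypes lay far apart, with means of 10.5 ± 0.281 and 3.69 ± 0.790 (SD, n = 2) and a ratio of 0.351. The log2 fold change was −1.31 ± 0.23 (SE), which is −1.17 once the median over all tested genes is subtracted, with an adjusted p of 0.0543 (limma), just above the threshold. NUDT6, a nudix hydrolase gene, overlaps 9540 bp of FGF2 on the opposite strand. It had 16.1 and 16.9 FPKM for WT and 5.23 and 8.89 for C/EBPβ enh−/− cells, and its log2 fold change was −1.16. The sources used here do not say whether the libraries kept strand, so fragments of FGF2 and NUDT6 in the shared stretch cannot be told apart. The 6 tested genes within 1 Mb of FGF2, NUDT6 among them, had a median of 0.07.

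Of the 22 FGF ligand genes, 18 were under an FPKM of 1 in all 4 libraries and 3 entered the test. FGF21, a stress-induced liver hormone, had 5.29 and 0.728 FPKM in WT cells and 0.0577 and 0.236 in C/EBPβ enh−/− cells. Like FGFR2, it was high in WT library 1 alone. FGF12, an intracellular member of the family, had 1.38 and 1.97 against 0.328 and 0.754. All 3 tested ligands had lower values in both C/EBPβ enh−/− libraries, as had 37.5% of all tested genes, with log2 fold changes of −1.31 for FGF2, −1.53 for FGF21 and −0.80 for FGF12, and none passed the test (adjusted p from 0.0543 to 0.204, limma). The value for FGF21 was −0.60 without WT library 1, −2.46 without WT library 2 and −3.20 with a pseudocount of 0.1, and that for FGF12 was −1.53 with the latter. All 3 were lower at an unadjusted p under 0.05 (limma), against 16.9% over all genes. FGF21 and FGF12 were under an FPKM of 1 in both C/EBPβ enh−/− libraries and entered the test through their WT values. The counts of lower ligands are therefore in part set by the filter.

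FRS2 (ENSG00000166225.4, chr12:69864129-69973573, plus strand) had 5.94 and 5.34 FPKM in WT cells and 7.04 and 5.19 in C/EBPβ enh−/− cells. The groups overlapped. Its log2 fold change was 0.09 ± 0.24 (SE), with an adjusted p of 0.867 (limma). Rescaling separated the groups, with FPKM of 5.54 and 4.87 against 7.28 and 5.996 at a common total, and the log2 fold change was then 0.30, or 0.26 with centring. Of the 13 tested docking proteins and adaptors, including FRS2, none passed the test, 4 were lower in both C/EBPβ enh−/− libraries and 1 was higher, against 37.5% and 15.1% of all tested genes. CRKL, an adaptor with phosphotyrosine-binding and proline-binding domains, had 18.4 and 16.1 FPKM in WT cells and 9.53 and 7.95 in C/EBPβ enh−/− cells. Its log2 fold change was −0.91, with an adjusted p of 0.0931 (limma). The adaptor SHC1 had 54.8 and 86.9 against 21.3 and 39.8, and GRB2, which links the docking proteins to SOS1, had 52.5 and 48.7 against 38.0 and 32.5. At an unadjusted p under 0.05 (limma), 4 of the 13 were lower and 0 were higher, against 16.9% and 3.86% over all tested genes.

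Among 19 tested coreceptor and heparan sulfate genes, 1 passed the test. GPC5, a glypican that carries heparan sulfate at the membrane, fell from 6.42 and 5.65 FPKM in WT cells to 0.241 and 0.339 in C/EBPβ enh−/− cells, with a log2 fold change of −2.45 ± 0.25 (SE) and an adjusted p of 0.0122 (limma). Its adjusted p was 0.188 without the filter on low values, and from 0.0613 to 0.114 when any of the 4 libraries was left out (limma). GPC5 lies on chromosome 13, with a median of −0.50 over 212 tested genes. Lower values in both C/EBPβ enh−/− libraries were found for 10 of the 19 genes and higher values for 3, where all tested genes gave 37.5% and 15.1%, and 1.21% passed the test as lower. The median log2 fold change was −0.34, beside −0.14 over all tested genes, and it was −0.17 with centring and −0.12 with a common total per library. Of the 19, 6 were lower and 1 higher at an unadjusted p under 0.05 (limma), against 16.9% and 3.86%. GPC5 and GPC2 were under an FPKM of 1 in both C/EBPβ enh−/− libraries, and FLRT3 in both WT libraries. The filter thus admitted each through the other genotype, and it sets these counts in part. It kept out GPC3, with 0.000411 and 0.0292 FPKM against 0.763 and 2.12. It also kept out FLRT2, which went the other way (0.892 and 2.15 against 0.00127 and 0.00487). HS6ST2, a heparan sulfate sulfotransferase, had 5.93 and 9.34 FPKM against 1.92 and 3.51. The glypican GPC1 had 3.93 and 12.4 FPKM against 3.24 and 2.80, and its log2 fold change of −1.02 was −0.30 without WT library 2 and −1.74 without WT library 1. The syndecans SDC4 and SDC1 had log2 fold changes of −0.83 and −0.64 (adjusted p = 0.168 and 0.285, limma). SDC1, at 19.6 and 32.4 FPKM against 18.7 and 13.5, was at −0.29 without WT library 2, −0.42 without C/EBPβ enh−/− library 2 and −0.99 without WT library 1. Of the 3 genes with higher values in both C/EBPβ enh−/− libraries, FLRT3 had 0.826 and 0.739 FPKM against 2.59 and 3.32. Its log2 fold change was 1.14 (adjusted p = 0.0863, limma). The others were the chain-elongating enzyme genes EXTL3 and EXT2, higher by 0.47 and 0.16 on the log2 scale. Without 1 library, EXTL3 was between 0.30 and 0.64 and EXT2 between 0.069 and 0.24, and EXT2 was at 0.33 with centring and 0.39 with a common total.

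Downstream, none of the 13 tested genes of the RAS, RAF, MEK and ERK list passed the test. Of these, 6 were lower and 3 higher in both C/EBPβ enh−/− libraries, against background shares of 37.5% and 15.1%. Their median of −0.21 turned to 0.019 with a common total and was −0.39 without C/EBPβ enh−/− library 1. The ERK substrate kinase RPS6KA1 had 16.2 and 18.7 FPKM in WT cells and 9.44 and 8.75 in C/EBPβ enh−/− cells, with an adjusted p of 0.0962 (limma). MAP2K2, which encodes the ERK activator MEK2, had 83.1 and 109 against 46.5 and 64.6. MAPK3, which encodes an ERK kinase, had a log2 fold change of −0.48, while HRAS, BRAF and ARAF had 0.42, 0.37 and 0.21, and none of these 4 passed the test (adjusted p from 0.318 to 0.633, limma). Leaving out 1 library moved MAPK3 to between −0.73 and −0.23, HRAS to between 0.20 and 0.64 and ARAF to between 0.08 and 0.33. With a common total, MAPK3 was at −0.25, HRAS at 0.66, BRAF at 0.58 and ARAF at 0.44. At an unadjusted p under 0.05 (limma), 2 of the 13 were lower and 0 higher, against 16.9% and 3.86%.

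Of 6 tested factors that act on FGFR splicing, 4 were lower in both C/EBPβ enh−/− libraries (37.5% of all tested genes were) and none passed the test. At an unadjusted p under 0.05 (limma), 1 of the 6 was lower, against 16.9%. RBFOX2 had 54.2 and 43.5 FPKM in WT cells and 21.4 and 24.2 in C/EBPβ enh−/− cells. Its log2 fold change of −1.06 had an adjusted p of 0.0738 (limma). PTBP1 had 62.0 and 88.4 FPKM for WT and 54.7 and 58.4 for C/EBPβ enh−/− cells. Its log2 fold change was −0.38 (adjusted p = 0.415, limma), and −0.64 without WT library 1 or −0.13 without WT library 2. That of PTBP1 was also −0.21 with centring and −0.14 with a common total. The log2 fold change of ESRP2, a factor of the epithelial splice form, was −0.21 and that of MBNL1 −0.11. The directions of ESRP2 and MBNL1 changed with the scaling of the libraries.

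The Sprouty genes encode membrane-associated inhibitors of the RAS to ERK cascade that are themselves induced by it. SPRY1 (ENSG00000164056.6, chr4:124317950-124324915, plus strand) had 0.790 and 1.95 FPKM in WT cells and 1.52 and 0.641 in C/EBPβ enh−/− cells. SPRY2 (ENSG00000136158.6, chr13:80910111-80915261, minus strand) had 2.24 and 3.29 against 3.03 and 2.29. The genotypes overlapped for both genes, with log2 fold changes of −0.18 ± 0.37 and −0.03 ± 0.27 (SE) and adjusted p-values of 0.825 and 0.959 (limma). The sign of SPRY2 turned to 0.14 with either rescaling of the libraries. SPRY3 was listed at 0 in all 4 libraries.

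SPRY4 (ENSG00000187678.8, chr5:141689992-141706020, minus strand) had 0.139 and 0.162 FPKM in WT cells and 1.91 and 0.374 in C/EBPβ enh−/− cells. Both C/EBPβ enh−/− values lay above both WT values, but most of the difference came from C/EBPβ enh−/− library 1. Its mean of 0.646 FPKM over the 4 libraries kept it out of the test. The difference in mean log2(FPKM + 1) was 0.80, against a difference of 1.08 between the C/EBPβ enh−/− libraries themselves. The WT values correspond to about 5.48 and 7.05 fragments per kb, and those of C/EBPβ enh−/− cells to about 41.5 and 18.0. SPRY4-AS1, on the opposite strand across 1247 bp of SPRY4, had 0.807 FPKM in C/EBPβ enh−/− library 1 and at most 0.0616 in the other 3, and the 2 genes cannot be told apart where they overlap.

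The C/EBPβ enh−/− libraries also lay apart from each other for other genes of ERK feedback. The lists of feedback inhibitors and of ETS and early response targets had 23 tested genes, of which 17 were higher in C/EBPβ enh−/− library 1 than in library 2, against 58.9% of all tested genes. For 9 of the 23 the difference was at least 1 on the log2(FPKM + 1) scale, against 2.83% of all tested genes, and for 0 of them was library 2 higher by as much, against 2.24%. Between the WT libraries, 0 of the 23 differed by 1 or more, against 3.35% of all tested genes. The 9 genes, singled out after their values were seen, were the ETS factor genes ETV1, ETV4 and ETV5, the phosphatase genes DUSP4, DUSP5 and DUSP6, the AP-1 genes FOS and FOSL1, and IER3. ETV5 had 5.37 and 6.18 FPKM in WT cells, 22.2 in C/EBPβ enh−/− library 1 and 2.30 in library 2. DUSP6, the ERK phosphatase, had 1.88 and 1.55 in WT cells, 4.09 in C/EBPβ enh−/− library 1 and 0.984 in library 2. For both genes the C/EBPβ enh−/− libraries lay on opposite sides of the WT values. For ETV1, at 7.97 and 7.62 in WT cells, C/EBPβ enh−/− library 1 was near WT at 8.07, and library 2 was lower at 2.19. Of the 9 tested receptor, ligand, docking and Sprouty genes described here, 5 (55.6%) were higher in library 1, which is no more than the 58.9% of all tested genes. These were FGFR1, FGFR3, FRS2, SPRY1 and SPRY2, and SPRY4, which was not tested, was higher in it as well, while FGFR2, FGFR4, FGFRL1 and FGF2 were lower. Library 1 was also the shallowest, and the part of depth in this was not tested.

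**Figure D4:**
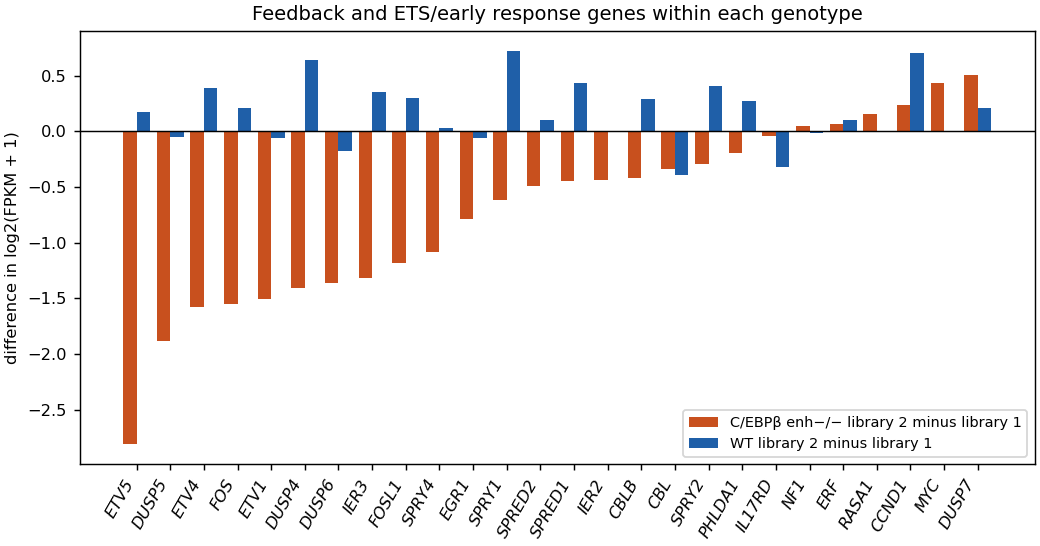
Library 2 minus library 1 in log2(FPKM + 1), within C/EBPβ enh−/− cells in orange and within WT cells in blue, for the feedback and ETS or early response genes that reached an FPKM of 1 in any library. The orange bars of ETV5, DUSP5, ETV4, FOS, ETV1, DUSP4, DUSP6, IER3, FOSL1 and SPRY4 reach −1 or below, and no blue bar does.

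Between genotypes, none of the 13 tested feedback inhibitors and none of the 10 tested ETS and early response targets passed the test. Feedback inhibitors had a median log2 fold change of −0.05, which ranged from −0.35 without C/EBPβ enh−/− library 1 to 0.14 without WT library 2. Of the 13, 4 were lower and 2 higher in both C/EBPβ enh−/− libraries, near the 37.5% and 15.1% of all tested genes. The 2 higher genes were DUSP4 and CBLB. DUSP4 had 0.868 and 1.92 FPKM in WT cells, 8.29 in C/EBPβ enh−/− library 1 and 2.51 in library 2. Its log2 fold change was 1.29 (adjusted p = 0.195, limma), and that of CBLB was 0.38 (adjusted p = 0.466, limma). NF1, a GTPase-activating protein for RAS, had 13.1 and 12.9 FPKM against 8.09 and 8.40, a log2 fold change of −0.60 (adjusted p = 0.173, limma). ERF, an ETS repressor that ERK inactivates, had a log2 fold change of −0.15, which changed sign with the scaling. At an unadjusted p under 0.05 (limma), 1 feedback inhibitor was lower and 1 higher, against 16.9% and 3.86%. The ETS and early response list had a median of 0.07, but −0.73 without C/EBPβ enh−/− library 1 and 0.60 without library 2. Of its 10 genes, 3 were lower and 1 higher in both C/EBPβ enh−/− libraries, and 3 were lower and 0 higher at an unadjusted p under 0.05 (limma), beside the same background shares. MYC had 109 and 108 FPKM in WT cells and 46.1 and 62.8 in C/EBPβ enh−/− cells. The adjusted p was 0.0878 (limma). CCND1, the gene of cyclin D1, had 27.4 and 45.3 against 13.9 and 16.6 (log2 fold change −1.17, adjusted p = 0.0957, limma). IER2 had 24.5 and 24.5 against 36.4 and 26.6.

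In WT cells the order of mean FPKM was FGFRL1, FGF2, FGFR1, FRS2, FGFR4, SPRY2, FGFR3, FGFR2, SPRY1 and SPRY4, and in C/EBPβ enh−/− cells it was FGFR1, FGFRL1, FRS2, FGFR3, FGF2, SPRY2, FGFR4, SPRY4, SPRY1 and FGFR2. The ranges of neighbours in this order overlapped for SPRY2 and FGFR3, for FGFR3 and FGFR2, and for FGFR2 and SPRY1 in WT cells. All other neighbours in WT cells did not overlap. In C/EBPβ enh−/− cells they overlapped for FGFR1 and FGFRL1, for FGFR3 and FGF2, for SPRY2 and FGFR4, for SPRY4 and SPRY1, and for SPRY1 and FGFR2.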

How the data were processed

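RNA-seq covered cells labelled HepG2, with 2 libraries for WT and 2 for C/EBPβ enh−/−. The authors deposited 1 FPKM value for each gene in each library. Their processing notes name TopHat2 2.0.13, Cufflinks, edgeR and hg19 without roles; the library kit, its strand setting and the FPKM scaling are not given in the sources used here. Of 57815 entries per library, 47 copies from the pseudoautosomal regions were left out, and 55535 of the remaining 57768 matched a symbol in GENCODE release 44 lifted to GRCh37, which also gave the coordinates. Groups came from the labels.

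FPKM are not counts, so the 12491 genes whose mean FPKM across 4 libraries reached 1 were tested on log2(FPKM + 1) with limma 3.58.1 (lmFit, eBayes with trend, R 4.3.3) and Benjamini-Hochberg adjustment at 0.05. The script was tested on simulated data. Low values were spaced by the worth of 1 fragment, which gave approximate depths, since 43.7% to 47.4% of the values lay within 0.1 of a whole fragment. No count test was run. Comparisons within a library used exact permutation tests.

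The 10 genes, the lists and the tests were chosen with earlier results of these data known. Named were the 10 genes, CEBPB, list genes that passed the test, and, per list and direction, up to 4 genes separated by genotype with a mean FPKM of at least 5, plus the 5 genes nearest in pattern to FGFR2. 1 gene that this rule names is not reported here. Other genes were named as members of a count or after their values were seen. Alternatives were a pseudocount of 0.1, no filter, centring on the median, a common total without genes over 1% of any library, a replicate block, no trend, and leaving out each library. Both genotypes carry the numbers 1 and 2, but the labels do not say that a number marks a shared culture. Promoter windows were read from RefSeq (GRCh38.p14).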

Additional observations from a re-analysis of the deposited data

How the results depend on the processing

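In every setting, 0 of the 9 genes tested had an adjusted p under 0.05 (limma), and 3 had an unadjusted p under 0.05 in every setting that kept all libraries, or 1 to 3 when a library was left out. FGF2 lay closest to the threshold, with an adjusted p (limma) of 0.05 (not below it) at a pseudocount of 0.1, 0.0608 without the trend, 0.110 with centring, 0.123 with a common total, 0.428 without the filter, and 0.104 to 0.361 when a library was left out. Over all genes, 151 lower calls became 0 without the filter (2657 at an unadjusted p under 0.05, limma), 68 with centring, 56 with a common total and 9 to 22 without a library, and 31 higher calls became 0 without the filter (1107 unadjusted) and 3 to 20 without a library. The median of all tested genes, −0.14, became 0 without the filter, 0.0345 with centring (a shift of 0.174), 0.0718 with a common total (a shift of 0.212) and −0.19 to −0.10 without a library. At an unadjusted p under 0.05, the 2114 lower and 482 higher genes became 1263 and 1142 with centring and 1101 and 1336 with a common total. Of the 4 lower separated genes, 3 remained so with centring and 2 with a common total.

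The sign of some small differences turned. SPRY2 became 0.14 with centring and 0.14 with a common total, ERF 0.029 and 0.089, and MBNL1 0.063 and 0.12, while ESRP2 became 0.0012 and ATE1 6.73e-05 with a common total. Leaving out a library gave ranges of −0.10 to 0.28 for FRS2, −0.54 to 0.19 for SPRY1, −0.23 to 0.17 for SPRY2 and −0.46 to 0.0089 for ATE1, −0.99 to 0.32 for FGFR2 relative to FGFR4, and −1.19 to 0.31 relative to FGFRL1. FGFR2 itself ranged from −1.57 to −0.33. The share differences ranged from 12.6 to 28.9 points for FGFR1, −18.4 to −2.76 for FGFR2, 0.62 to 6.96 for FGFR3 and −17.4 to −10.5 for FGFR4. The cause of these changes was not tested.

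A block for the replicate number left 93 genes called lower. Under it, FGF2 had an adjusted p of 0.0729 and GPC5 one of 0.0222 (limma), and no call among the named genes changed. Same-numbered libraries did not deviate together (r = 0.0094 across genes, which are not independent replicates), so the numbers were not taken to pair the libraries.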
